A study of Mus musculus with 47 samples.

Results

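RNA-seq counts of 40 type I interferon-stimulated genes were followed in cultured B78-D14 melanoma cells and in tumors grown from them. The genes were taken from a list drawn up by name with earlier results of these data known. Each of the 40 symbols was found as 1 row among the 56748 genes of the count table. B78-D14 is an amelanotic mouse melanoma line derived from B16. Its mitochondrial DNA had been edited in *Mt-Nd5*, a subunit gene of respiratory complex I, with a mitochondrial base editor (TALE-DdCBE), and the edited lines were kept as cell populations rather than single clones. The cultures comprised 4 of m.11,944 60% cells and 4 of control cells, where the percentage is the heteroplasmy, the share of mtDNA copies that carry the edit. The tumors comprised 7 of the m.12,436 60% line, 7 of the m.12,436 40% line and 4 of the control line, all grown under the skin of male C57BL/6 mice with an intact immune system and not treated. Cells and tumors therefore carry different edits, and the tumors are pieces of tissue that hold host cells beside the injected ones. The targeted gene gives no check of the labels here, because a base edit does not remove its RNA.

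Type I interferons signal through the receptor IFNAR1–IFNAR2 to a complex of transcription factors that includes STAT2 and IRF9, which binds the interferon-stimulated response element (ISRE) and switches on a broad antiviral programme. Interferon gamma acts mainly through a different element, the gamma-activated site (GAS). In tumors the programme can be set off by nucleic acid sensing in the cancer cells or in infiltrating immune cells, and macrophages and dendritic cells express many of its genes strongly.

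Promoter windows were available for 32 of the 40 genes in RefSeq's table for GRCm38.p6, which runs from 250 bases before to 50 after the start of a gene, and 8 genes had none. Both motifs have 9 letters and were searched on both strands. The ISRE letters GAAANNGAA, or TTCNNTTTC on the other strand, were present in 15 of the 32 genes, against 9.76% of all 27025 genes in the table. The GAS letters TTCNNNGAA, which read the same on both strands, were present in 8 of the 32, against 9.55% of all genes. Both motifs were present in 4 genes and neither in 13, and 2 pairs of an ISRE and a GAS match shared bases. The following stretches show the 120 bases before the start of 3 genes that were low or near zero in culture (*Ifit1*, *Isg15*, *Rsad2*) and of 3 that passed the threshold in a comparison (*Irf1*, *Irf5*, *Trim30a*, the first and last with 1 of their 2 windows). Capitals mark the matches.

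Ifit1, chr19:34640769-34640888, + strand: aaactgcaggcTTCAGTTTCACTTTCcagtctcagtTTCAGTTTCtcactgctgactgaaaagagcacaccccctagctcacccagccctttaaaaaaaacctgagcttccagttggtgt
Isg15, chr4:156200819-156200938, - strand: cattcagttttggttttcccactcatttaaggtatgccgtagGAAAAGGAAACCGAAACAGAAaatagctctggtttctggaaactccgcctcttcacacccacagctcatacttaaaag
Rsad2, chr12:26456453-26456572, - strand: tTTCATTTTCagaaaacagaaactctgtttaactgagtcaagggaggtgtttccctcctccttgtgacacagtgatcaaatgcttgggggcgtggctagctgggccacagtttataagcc
Irf1, chr11:53769894-53770013, + strand: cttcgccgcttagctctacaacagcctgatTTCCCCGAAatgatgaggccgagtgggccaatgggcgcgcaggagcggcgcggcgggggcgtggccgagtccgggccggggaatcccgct
Irf5, chr6:29526505-29526624, + strand: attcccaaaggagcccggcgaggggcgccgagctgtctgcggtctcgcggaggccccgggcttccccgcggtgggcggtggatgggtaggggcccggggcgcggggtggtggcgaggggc
Trim30a, chr7:104465194-104465313, - strand: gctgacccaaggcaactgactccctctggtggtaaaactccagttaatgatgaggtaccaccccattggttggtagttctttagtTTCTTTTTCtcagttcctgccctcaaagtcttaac

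*Ifit1* and *Isg15* each held 3 ISRE matches in these bases, *Rsad2* and *Trim30a* 1 each, *Irf1* 1 GAS match and *Irf5* neither. For *Irf1* and *Trim30a* the stretch shown is the one with a match, and the same stretch before their other start held no match. A match is a description of the letters and not a measurement of binding.

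Total counts per library lay between 25249060 and 36173502 for cultures and between 16475735 and 31218475 for tumors. The labels do not say whether the cultures of a group were grown separately, so that p-values there measure the spread between these cultures, which may be technical. Cultures numbered 1 and 2 differed from cultures 3 and 4 in both cell groups, with 31.1% of genes above in all 4 of the former and 31.1% above in all 4 of the latter. CPM, the usual unit of counts relative to the library total, was taken after scaling between libraries, separately for cultures and for tumors. Only where control tumors were compared with control cells were these libraries scaled together. The same library therefore has a somewhat different CPM in that comparison. Control tumors 3 and 2 held 26.3 and 3.40 CPM of the melanocyte gene *Dct* and every other tumor at most 0.0449 CPM. T and NK cell markers had 0 reads in all cultures. The leukocyte markers *Ptprc*, *Itgb2*, *Coro1a* and *Laptm5*, summed, came to 0.66 to 1.26 CPM in the cultures and 438 to 949 CPM in the tumors.

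In culture the 40 genes fell into 3 levels. By mean CPM over the 8 cultures, 21 genes were at 1 or more, 8 were between 0.1 and 1, and 11 were under 0.1. Those at 1 or more included the membrane restriction factors *Ifitm3* and *Bst2*, the ubiquitin ligase gene *Trim25*, the double-stranded RNA-activated kinase gene *Eif2ak2*, *Ifit2*, *Isg20*, 4 of the 5 transcription factors, and the PARP and DTX3L group. The 8 low genes were *Ifit3*, *Isg15*, *Usp18*, *Irf7*, *Dhx58*, *Xaf1*, *Rtp4* and *Sp100*. The 11 near zero were *Ifit1*, *Ifit3b*, *Oas1a*, *Oas2*, *Oasl1*, *Oasl2*, *Mx1*, *Mx2*, *Rsad2*, *Cmpk2* and *Ifi44*, which take in both Mx GTPases and 4 of the 5 OAS family genes. ISRE letters were present in 8 of the 19 genes of the first level with a promoter window, in 2 of 5 of the second and in 5 of 8 of the third. Per kilobase of exon, the highest mean in culture was *Ifitm3* with 199 CPM per kb, followed by *Bst2* with 13.7 and *Trim25* with 11.3, and *Oas2* was at 0 reads in all 8 cultures.

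**Figure D1:**
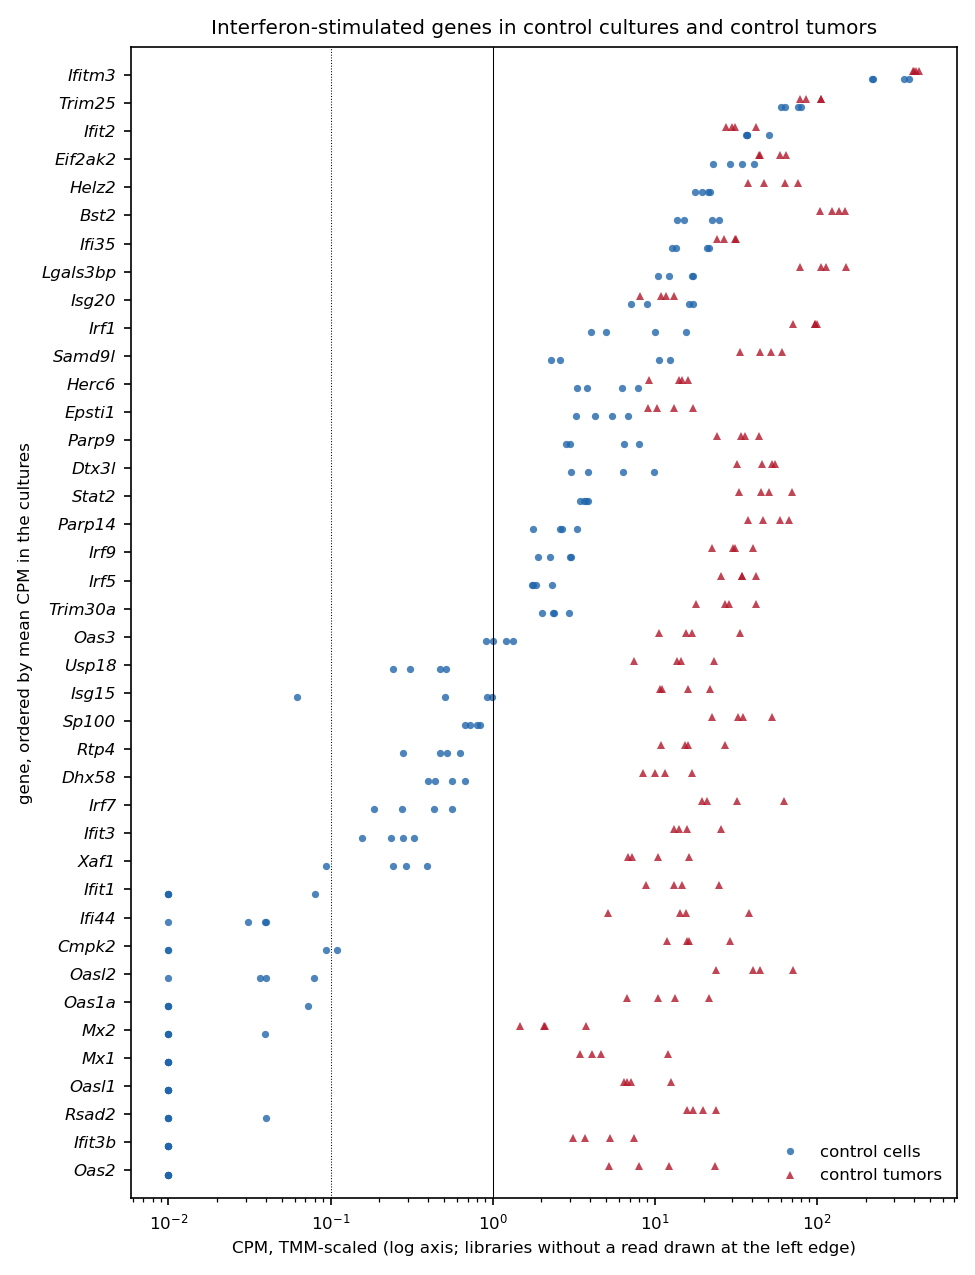
CPM of the 40 genes on a log axis in each of 4 control cultures (circles) and 4 control tumors (triangles), scaled together, with genes ordered by their mean in the 8 cultures. The solid line marks 1 CPM and the dotted line 0.1 CPM, and the 11 genes at the bottom are the ones near zero in culture, all of which lie above 1 CPM in every control tumor.

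Control tumors were compared with control cells to set these levels beside those of tissue, a comparison in which the dish, the host cells and the time of growth differ together. Of the 27 genes with enough reads in the cultures alone, 25 were higher in control tumors at an adjusted p under 0.1 in edgeR's test and none was lower, where 25.1% of the 12792 genes that passed in the same way were higher. For 24 of the 27 the 4 tumors all lay above the 4 cultures, as did 22.2% of those genes, and the median log2 fold change was 3.00 against -0.13. The other 13, the 11 near zero in culture with *Ifit3* and *Xaf1*, entered the test only through their reads in tumors and so had to differ. With them 38 of the 40 were higher, 37 without overlap, where over all 15047 genes tested 35.3% were higher, 29.9% lower and 32.5% higher without overlap. In bulk tissue, more cells of a type and more RNA per cell cannot be told apart.

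The size of the difference followed the level in culture, a description that the low culture values themselves set in part and, for the genes near zero and for *Ifit3* and *Xaf1*, the filter. Genes at 1 CPM or more in culture had a median log2 fold change of 2.76, the low genes 5.29 and the genes near zero 10.1. The last value is as fitted and takes in 4 genes without reads in the control cultures, for which only a lower bound can be given. *Oas2*, *Oasl1*, *Mx1* and *Ifit3b* had 0 reads in all 4 control cultures, and set against 3 reads over those cultures they were at least 449-fold, 302-fold, 221-fold and 180-fold higher in control tumors. *Rsad2*, which encodes the antiviral enzyme viperin, had 1 read in the 4 control cultures. Its mean in tumors was 19.2 CPM ± 3.59 (n = 4), scaled together with the cultures as are the other means of this paragraph. The ratio was 2107 with a 95% counting interval of 378 to 83218. This interval covers counting error only. *Irf7*, the transcription factor that amplifies interferon production, averaged 0.366 CPM ± 0.167 in control cells and 33.9 CPM ± 19.9 in control tumors (n = 4 each, log2 fold change 6.54, SE 0.524, adjusted p = 1.05e-05 in edgeR's test). The 2 genes that did not pass were *Ifit2*, with 40.2 CPM ± 6.89 in cells and 32.6 CPM ± 6.44 in tumors (adjusted p = 0.158 in edgeR's test), and *Isg20*, an exonuclease gene, with 12.4 CPM ± 5.07 and 11.01 CPM ± 2.11 (adjusted p = 0.647). *Trim25* and *Ifitm3* had the smallest log2 fold changes of those that passed, 0.42 and 0.49. Without control tumor 2, *Ifit2* passed as lower and 37 of the 40 as higher.

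In m.11,944 60% cells, 27 of the 40 genes had enough reads to be tested, and the 13 others, among them the Mx genes and all but 1 each of the IFIT and OAS families, did not pass the filter. Of the 27, 1 was lower and 0 were higher at an adjusted p under 0.1 in edgeR's test, where 0.0309% of 12930 genes were lower and 0.00773% higher. An unadjusted p under 0.05 was reached by 3 of the 27 and by 4.11% of all genes. The median log2 fold change of the 27 was 0.20, against 0.00 for all genes, with 19 positive and 8 negative.

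The gene that fell was *Trim30a*, a TRIM family gene known as a brake on Toll-like receptor signalling. It read 2.71, 2.18, 1.85 and 2.24 CPM in control replicates 1 to 4 and 0.745, 0.715, 0.499 and 0.547 CPM in m.11,944 60% replicates 1 to 4, so that the groups did not overlap. Its log2 fold change was -1.84 (SE 0.233, adjusted p = 0.0896 in edgeR's test). The same-numbered cultures of the 2 groups vary together, and a fit that takes that number as a block gave -1.84 and an adjusted p of 0.00239 in edgeR's test. Without any 1 of the 8 cultures and without the block, 0 of the 27 passed, and 0 of all genes tested did.

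*Usp18*, the protease that removes ISG15 from proteins and restrains IFNAR signalling, read 0.219, 0.473, 0.284 and 0.441 CPM in control replicates 1 to 4 and 0.863, 1.43, 0.998 and 0.711 CPM in the m.11,944 60% replicates. All 4 edited cultures lay above all 4 control cultures, as did 1.62% of all genes. The log2 fold change was 1.48 (SE 0.343), and its adjusted p was 0.602 in edgeR's test without the block and 0.0363 with it. *Herc6*, the ligase that attaches ISG15 in the mouse, had 4.90 CPM ± 2.01 in control and 7.24 CPM ± 1.90 in m.11,944 60% cells (n = 4 each), with a log2 fold change of 0.60 (SE 0.133, adjusted p = 0.0510 in edgeR's test) under the block and an adjusted p of 1 without it. With the block 919 genes passed over the whole table, 2 of the 27 were higher and 1 lower. *Sp100*, a nuclear body gene, averaged 0.698 CPM ± 0.0711 in control and 0.408 CPM ± 0.0568 in edited cells without overlap (adjusted p = 0.995), and *Stat2* averaged 3.38 CPM ± 0.152 and 4.42 CPM ± 0.746, also without overlap (adjusted p = 1).

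Some of the 27 genes also differed by the number of the culture. *Bst2*, *Ifi35*, *Isg15*, *Isg20*, *Lgals3bp* and *Rtp4* were higher in cultures 1 and 2 of both groups, and *Dtx3l*, *Eif2ak2*, *Epsti1*, *Herc6*, *Irf1*, *Oas3*, *Parp9* and *Samd9l* in cultures 3 and 4. These 6 and 8 of 27 genes compare with 31.1% of all genes in either direction, so that the shares are near the background. *Samd9l* shows the split, with 2.08 and 2.40 CPM in control cultures 1 and 2 and 11.4 and 9.91 CPM in control cultures 3 and 4. The edited cultures read 6.04, 5.23, 9.63 and 9.33 CPM. *Isg20* was the reverse, and what separates the numbered cultures is not given in the labels.

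In m.12,436 60% tumors, 2 of the 40 genes were higher than in control tumors at an adjusted p under 0.1 in edgeR's test, *Irf5* and *Samd9l*, where 0.962% of 16213 genes were higher and 1.34% lower. All 40 log2 fold changes were positive, from 0.13 to 1.16, with a median of 0.78 against 0.00 for all genes. An unadjusted p under 0.05 was reached by 34 of the 40 and by 16.3% of all genes. With leukocyte markers added to the fit, as given below, 0 of the 40 and 5 of all genes passed, and the median was 0.04. For none of the 40 did the 7 tumors all lie above the 4 control tumors, as 1.41% of all genes did. The 40 genes vary together from tumor to tumor, so that their shared sign is not 40 separate observations. The list was also chosen with earlier results of these data known, so that setting it against all genes is a description and not an independent test.

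**Figure D2:**
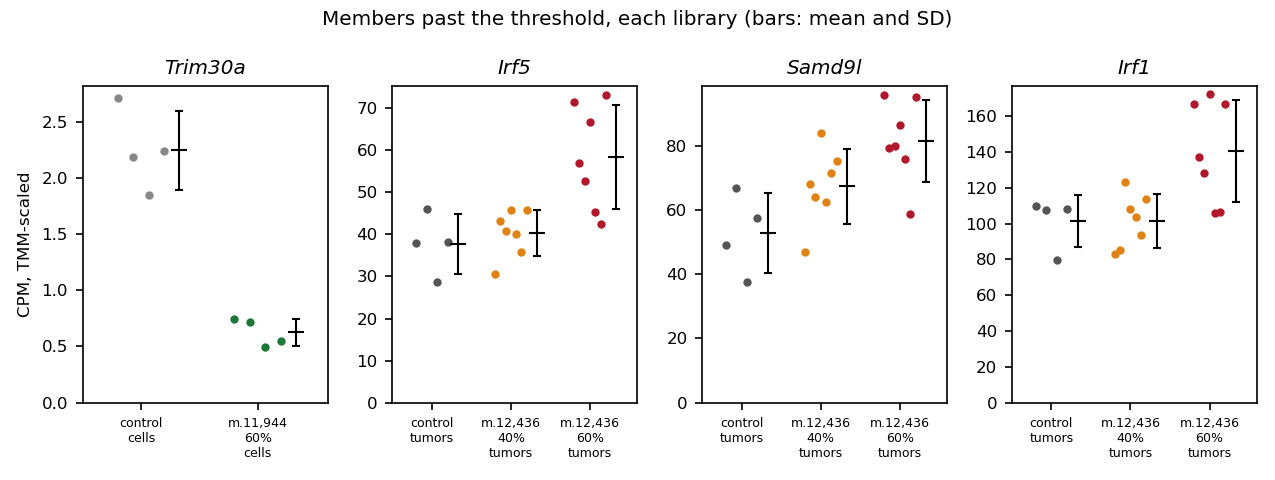
CPM in each library for the 4 genes that passed the threshold in a comparison, with the mean and SD of each group beside the points and axes starting at 0. *Trim30a* does not overlap between the cell groups, while *Irf5*, *Samd9l* and *Irf1* overlap between the 60% tumors and the control tumors.

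*Irf5*, a transcription factor of macrophages and other myeloid cells that acts downstream of Toll-like receptors (chromosome 6, 29526276 to 29541870 in GRCm39, + strand), read 37.9, 46.0, 28.7 and 38.2 CPM in control tumors 1 to 4. In the 7 m.12,436 60% tumors the lowest was 42.3, the median 57.0 and the highest 73.0 CPM. The 60% tumors 5 and 6 lay below control tumor 2 and the other 5 above all controls. The log2 fold change was 0.63 (SE 0.157, adjusted p = 0.0614 in edgeR's test). The exons of *Irf5* share 416 bases with *Tnpo3* on the other strand, and whether reads were counted by strand is not given in the sources used here.

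*Samd9l*, an antiviral translation inhibitor (chromosome 6, 3372257 to 3405056 in GRCm39, - strand), read 49.1, 66.8, 37.6 and 57.6 CPM in control tumors 1 to 4 and 58.7, 79.9 and 95.7 CPM at the lowest, median and highest of the 60% tumors. Of the 60% tumors 6 lay above every control tumor and tumor 6 did not. The log2 fold change was 0.63 (SE 0.161, adjusted p = 0.0693 in edgeR's test).

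The count of genes that passed rested on single tumors. It was 0 without control tumor 1 or control tumor 3 and 20 without control tumor 2, the control with the highest level of 36 of the 40 genes. It was 3 without control tumor 4. It was 0 without 60% tumor 1, 4 or 7, 1 without tumor 3, 3 without tumor 5 and 13 without tumor 6. DESeq2 called 24 of the 40 where it called 1056 genes in all. The count over all genes moved as well, from 374 to 125 without control tumor 1, 716 without control tumor 2, 66 without control tumor 3, 724 without control tumor 4 and 451 without 60% tumor 6. Without 60% tumor 1, 3, 4, 5 or 7 it was 186, 239, 207, 323 or 251. All 40 log2 fold changes stayed positive in each of these fits, and the median ranged from 0.61 without control tumor 3 to 1.00 without control tumor 2.

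By class, the median difference in 60% tumors was highest in the OAS family, double-stranded RNA sensors that in part feed RNase L, with a median log2 fold change of 1.02 over 5 genes. *Oasl2* read 49.1, 78.03, 26.5 and 44.6 CPM in control tumors 1 to 4 and 53.9, 98.5 and 143 CPM at the lowest, median and highest of the 60% tumors (log2 fold change 1.02, SE 0.317, adjusted p = 0.135 in edgeR's test). In the IFIT family, which binds viral RNA, the median was 0.98 over 4 genes that lie together on chromosome 19. *Ifit3* read 17.4, 28.2, 14.8 and 15.5 CPM in control tumors and 18.3, 37.9 and 58.7 CPM at the lowest, median and highest of the 60% tumors (log2 fold change 1.00, adjusted p = 0.193). *Ifit2*, the member of the family at 1 CPM or more in culture, read 34.4, 46.1, 30.6 and 33.1 CPM in control tumors and 27.4, 49.6 and 71.4 CPM in 60% tumors by the same 3 values. The lowest 60% tumor, tumor 6, lay within the range of the controls for *Oasl2* and *Ifit3* and below all of them for *Ifit2*.

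For the Mx GTPases, *Mx1* read 5.12, 13.2, 3.88 and 4.53 CPM in control tumors and 4.75, 13.2 and 20.3 CPM at the lowest, median and highest of the 60% tumors (log2 fold change 0.90, adjusted p = 0.311 in edgeR's test). *Mx2* read 2.29, 4.13, 1.65 and 2.33 CPM in control tumors and 2.44, 4.98 and 5.91 CPM in the 60% tumors (0.78, adjusted p = 0.244). Both were at 0 or 1 read in every culture. Among genes of the ISG15 system, *Usp18* had the largest log2 fold change, 1.13 (SE 0.340, adjusted p = 0.130), with 15.9, 25.6, 8.33 and 15.2 CPM in control tumors and 20.1, 33.9 and 50.5 CPM at the lowest, median and highest of the 60% tumors. *Trim25*, which activates the RNA sensor RIG-I, had the smallest of the class, with 94.5, 116, 88.0 and 117 CPM in control tumors and 113, 127 and 143 CPM in 60% tumors (0.32, adjusted p = 0.140).

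Of the 5 transcription factors, *Irf7* had the largest log2 fold change, 1.06 (SE 0.431, adjusted p = 0.238 in edgeR's test), and *Irf1* the smallest, 0.47 (SE 0.148, adjusted p = 0.134). *Irf1*, which responds to both interferon types, read 110, 108, 79.9 and 108 CPM in control tumors and 106, 137 and 172 CPM at the lowest, median and highest of the 60% tumors. *Stat2* and *Irf9*, whose products are part of the complex that binds the ISRE, had 0.78 (adjusted p = 0.133) and 0.55 (adjusted p = 0.163). *Eif2ak2*, whose kinase halts translation, read 48.6, 70.8, 49.97 and 65.6 CPM in control tumors and 64.1, 77.8 and 99.8 CPM in 60% tumors (0.43, adjusted p = 0.143).

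Of the nucleotide and nucleic acid enzymes, *Rsad2* read 19.0, 26.3, 22.1 and 17.5 CPM in control tumors and 16.8, 40.9 and 53.9 CPM at the lowest, median and highest of the 60% tumors (log2 fold change 0.85, adjusted p = 0.292 in edgeR's test). *Cmpk2*, its neighbour on chromosome 12 and a mitochondrial nucleotide kinase, read 17.97, 31.9, 13.3 and 17.4 CPM and 20.1, 39.2 and 58.8 CPM by the same 3 values (0.90, adjusted p = 0.213). *Parp14*, an ADP-ribosyltransferase, read 51.4, 74.4, 42.1 and 65.6 CPM in control tumors and 66.7, 87.9 and 145 CPM in 60% tumors (0.80, adjusted p = 0.132). Its neighbours *Parp9* and *Dtx3l*, whose products work as a pair, had 0.61 and 0.58, and since their exons share 458 bases on opposite strands the 2 counts may hold reads of one another.

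Smaller log2 fold changes were found among genes already expressed in culture. *Ifitm3*, which blocks virus entry, read 447, 429, 443 and 474 CPM in control tumors and 413, 509 and 565 CPM at the lowest, median and highest of the 60% tumors (log2 fold change 0.13, SE 0.132, adjusted p = 0.647 in edgeR's test). *Bst2*, which tethers budding virus, read 152, 165, 117 and 137 CPM and 117, 198 and 247 CPM (0.34, adjusted p = 0.410). *Lgals3bp*, a secreted glycoprotein gene, read 126, 167, 88.2 and 118 CPM and 123, 202 and 256 CPM (0.62, adjusted p = 0.194). The median log2 fold change was 0.56 over the 21 genes expressed in culture, 0.92 over the 8 low ones and 0.91 over the 11 near zero, and the difference between these levels was not tested. *Trim30a*, lower in m.11,944 60% cells, had a log2 fold change of 0.75 in m.12,436 60% tumors (SE 0.250, adjusted p = 0.152), with 32.0 CPM ± 10.9 (SD, n = 4) in control and 53.9 CPM ± 13.8 (SD, n = 7) in 60% tumors.

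**Figure D3:**
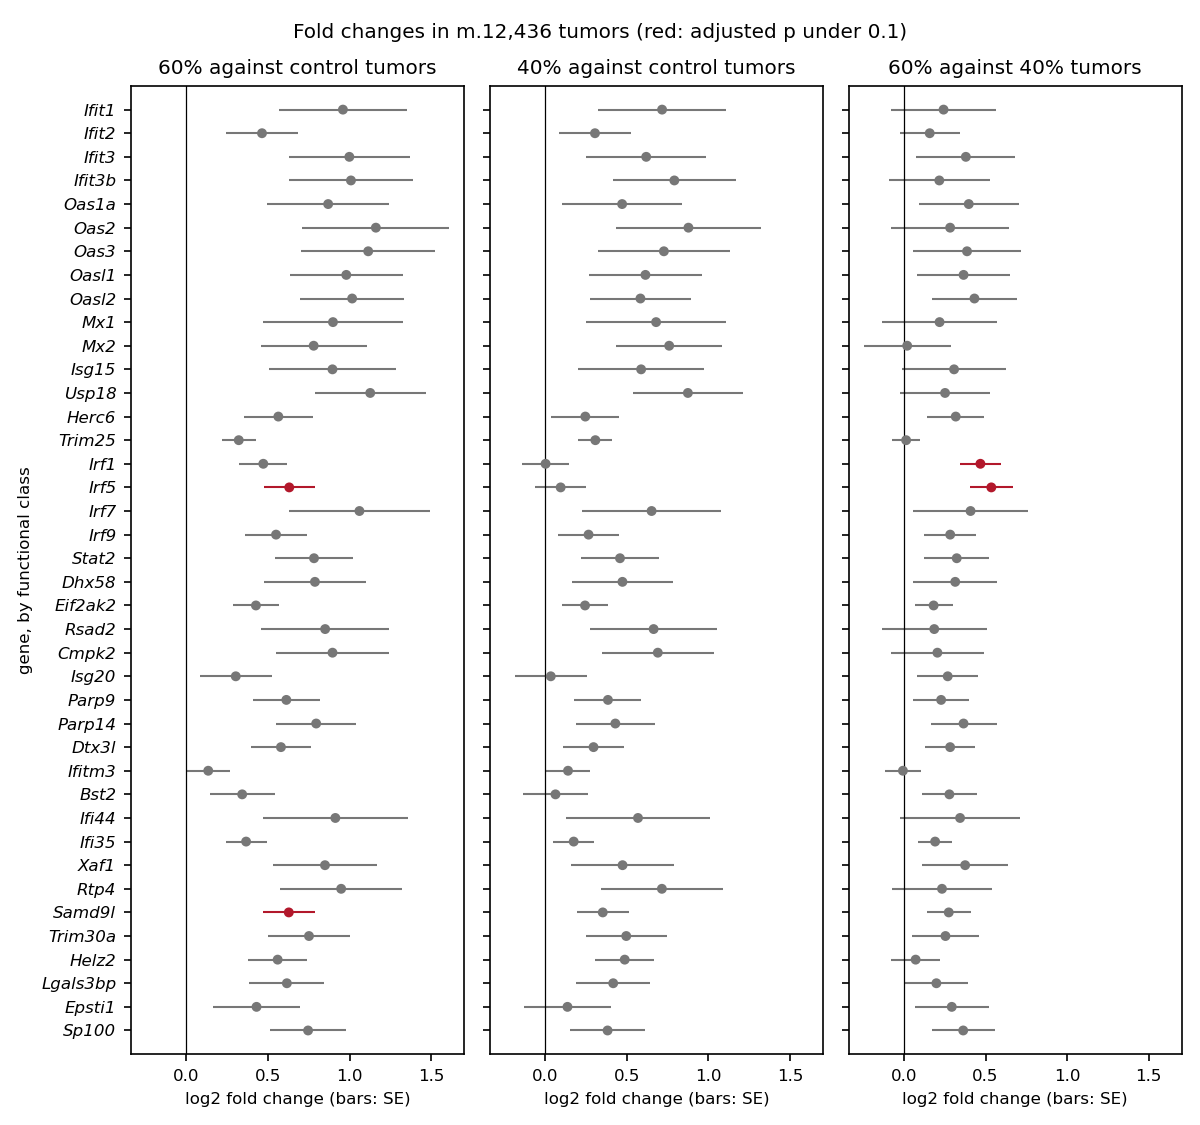
Log2 fold change with its standard error for each of the 40 genes, grouped by functional class, in the 3 comparisons of tumors, with genes past an adjusted p of 0.1 in red. All 40 lie right of 0 in the 60% and 40% tumors against control tumors, and 39 in the 60% against the 40% tumors.

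In m.12,436 40% tumors, 0 of the 40 genes passed the threshold against the same 4 control tumors, as did 0% of all 16213 genes in either direction, and the smallest adjusted p of the 40 was 0.924 in edgeR's test. DESeq2 called 0 of the 40 and 5 genes in all. The 40 log2 fold changes were again all positive, from 0.00 to 0.88 with a median of 0.47, and 5 of the 40 (*Trim25*, *Helz2*, *Usp18*, *Mx2* and *Samd9l*) had an unadjusted p under 0.05, against 5.09% of all genes. When 1 tumor was left out, the median ranged from 0.31 without control tumor 3 to 0.70 without control tumor 2. In these fits 37 to 40 of the 40 were positive, and by limma-voom on all tumors 39. No gene of the 40 was higher in all 7 tumors than in all 4 controls, as 0.173% of genes were. *Trim25* lay above every control tumor in 5 of the 7, the most of any of the 40. Its lowest, median and highest values were 103, 134 and 153 CPM, with a log2 fold change of 0.31 (SE 0.104, adjusted p = 0.924 in edgeR's test). *Usp18* read 16.5, 26.4 and 48.0 CPM by the same 3 values, with a log2 fold change of 0.87 (SE 0.338). The 4 smallest log2 fold changes were those of *Irf1*, 0.00 (SE 0.146), *Isg20*, 0.03 (SE 0.221), *Bst2*, 0.06 (SE 0.198), and *Irf5*, 0.10 (SE 0.155). No 40% tumor held more *Irf5* than the highest control tumor. Both mutant groups were set against the same control tumors, so that these values are not independent of those of the 60% tumors.

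The 60% tumors were also compared with the 40% tumors, which shares no control tumor. At an adjusted p under 0.1 in edgeR's test 2 of the 40 genes were higher, *Irf1* and *Irf5*, where 0.814% of genes were higher and 0.993% lower. None of the 40 lay above all 40% tumors in every 60% tumor, as 0.315% of genes did. *Irf1* read 82.9, 104 and 123 CPM at the lowest, median and highest of the 40% tumors and 106, 137 and 172 CPM in the 60% tumors (log2 fold change 0.47, SE 0.124, adjusted p = 0.0888). *Irf5* read 30.6, 40.8 and 45.8 CPM and 42.3, 57.0 and 73.0 CPM (0.54, SE 0.131, adjusted p = 0.0674). For both genes the 2 lowest 60% tumors lay within the range of the 40% tumors. The median log2 fold change of the 40 genes was 0.28 against 0.00 for all genes, and an unadjusted p under 0.05 was reached by these 2 and by 14.1% of all genes. When 1 tumor was left out, this median ranged from 0.18 without 60% tumor 7 to 0.36 without 60% tumor 6. Positive genes numbered 36 to 40 in these fits. With leukocyte markers in the fit the median was -0.42, as given below.

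*Trim25*, *Mx2* and *Ifitm3* gave log2 fold changes of 0.01 (SE 0.0874), 0.02 (SE 0.267) and -0.01 (SE 0.112) between the mutant groups. *Irf1* lost its place past the threshold, and 0 or 1 of the 40 passed, without 60% tumor 1, 2, 3, 4 or 7 or without 40% tumor 1, 2, 5 or 6. *Irf5* still passed without 60% tumor 3 and without 40% tumors 2 or 5, where 241, 243 and 337 of all genes passed. None of the 40 passed without 60% tumor 1, 2, 4 or 7 or without 40% tumor 1 or 6. In these fits 108, 132, 125, 139, 137 and 128 of all genes passed, against 293 with all tumors.

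Within each group the same tumors were high or low across nearly the whole list. Among control tumors, tumor 2 had the highest level for 36 of the 40 genes and tumor 3 the lowest for 35, and both held *Dct*. Among the 60% tumors, tumor 7 was highest for 35 genes and tumor 6 lowest for 37. Among the 40% tumors, tumors 2 and 4 were highest for 19 genes each and tumor 1 lowest for 33. Set against the highest of the 4 control tumors, 60% tumors 7, 1, 4 and 2 exceeded it for 40, 39, 39 and 38 of the 40 genes, tumor 3 for 30, tumor 5 for 7 and tumor 6 for 0. The 40% tumors 4, 2, 6 and 7 exceeded it for 37, 34, 32 and 27 genes, tumor 3 for 6 and tumors 1 and 5 for 0. Each mutant group thus held tumors with levels within those of the controls, and 2 of the 7 in the 60% group and 3 of the 7 in the 40% group exceeded the controls for fewer than 10 genes.

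**Figure D4:**
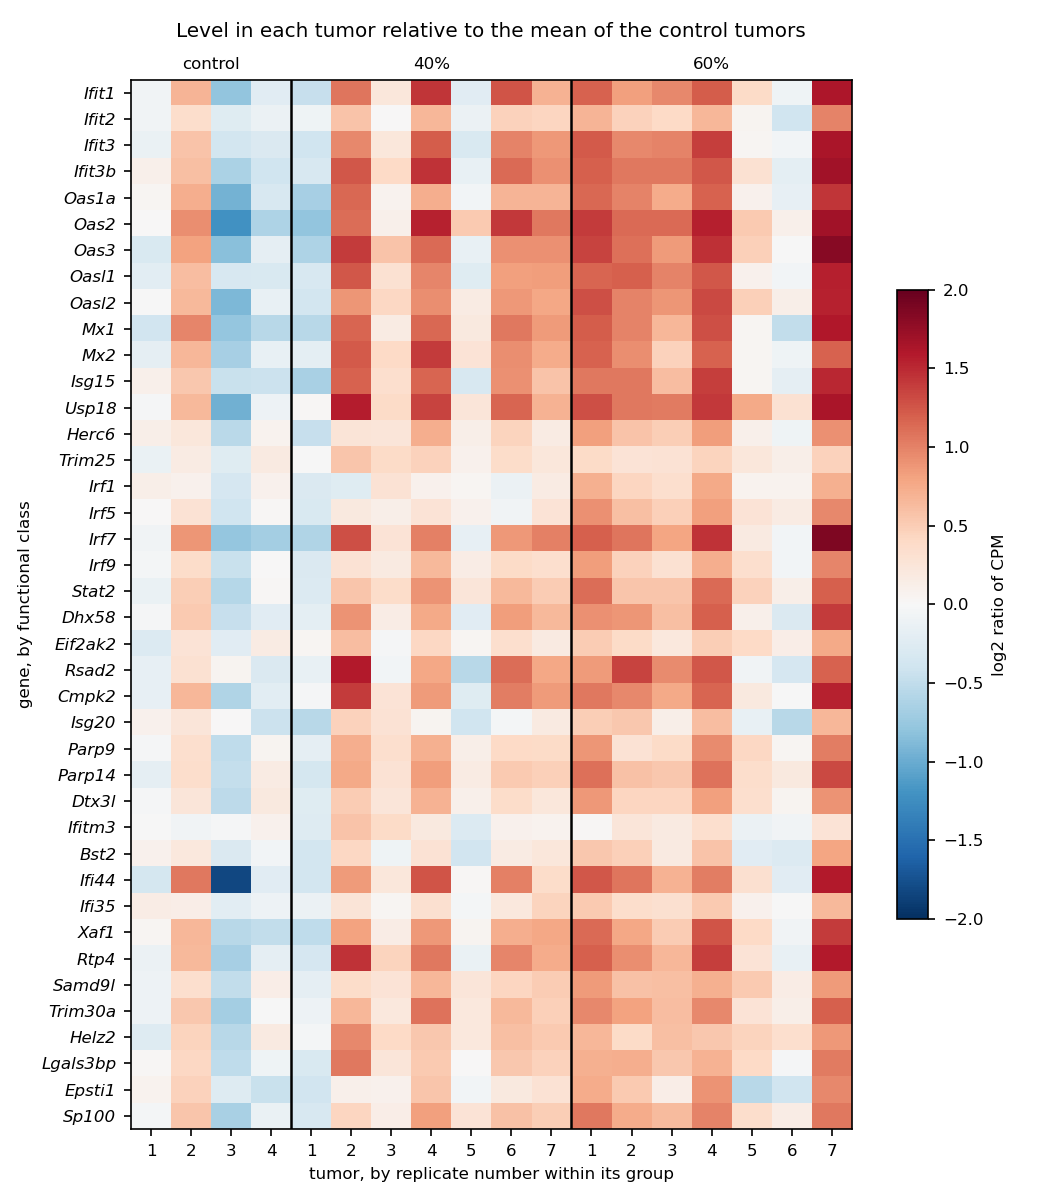
Log2 ratio of the CPM of each of the 40 genes in each of the 18 tumors to the mean of the 4 control tumors, from blue (lower) to red (higher), with columns numbered by replicate within each group. Columns are nearly uniform in color, as in 60% tumor 7 (highest of its group for 35 genes), 60% tumor 6 (lowest for 37) and control tumor 3 (lowest for 35).

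Of the 18 type I interferon genes looked at, none had enough reads to be tested in tumors, and their summed level was at most 0.33 CPM in any tumor. *Ifnb1* averaged 0.0195 CPM ± 0.0230 in the 4 control tumors, 0.0242 CPM ± 0.0363 in the 7 of the 40% line and 0.0295 CPM ± 0.0406 in the 7 of the 60% line, a few reads at most per library, so that a difference was not detectable at this depth. *Ifng*, the type II interferon made by T and NK cells, averaged 0.540 CPM ± 0.354 in 60% tumors and 0.271 CPM ± 0.191 in control tumors (log2 fold change 1.01, SE 0.618, adjusted p = 0.430 in edgeR's test). Of 6 interferon receptor genes 5 were tested and 0 passed in 60% against control tumors. Over all genes 0.962% were higher and 1.34% lower there. *Ifnar1* and *Ifnar2* each had a log2 fold change of 0.08 in 60% tumors, with SEs of 0.0557 and 0.0666.

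Among 12 sensors and adaptors that induce interferons, 1 passed in 60% against control tumors, where 0.962% of all genes were higher. It was the Z-form nucleic acid sensor gene *Zbp1*, itself interferon-inducible. *Zbp1* read 20.04, 26.2, 8.20 and 20.4 CPM in control tumors, and all 7 of the 60% tumors lay above these, as for 1.41% of all genes. The 60% tumors had a mean of 49.96 CPM ± 13.1 (SD, n = 7) and a log2 fold change of 1.42 (SE 0.315, adjusted p = 0.0414 in edgeR's test). *Zbp1* also passed in 60% against 40% tumors, where 0.814% of all genes were higher (1.01, SE 0.255, adjusted p = 0.0800 in edgeR's test). It had 0 reads in all 8 cultures. *Irf3*, through which sensors induce interferon beta, had a log2 fold change of 0.06 (SE 0.0819). Of 5 feedback inhibitors 0 passed in 60% against control tumors, where 0.962% of all genes were higher and 1.34% lower.

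Leukocyte markers also differed between the tumor groups. The 4 leukocyte markers summed to 438 to 645 CPM in control tumors, 464 to 607 CPM in 40% tumors and 606 to 949 CPM in 60% tumors. Of the 4, 1 passed in 60% against control tumors, where 0.962% of all genes were higher. It was *Itgb2*, the beta chain of leukocyte integrins (143 CPM ± 40.0, n = 4, to 218 CPM ± 23.0, n = 7, log2 fold change 0.61, SE 0.158, adjusted p = 0.0726 in edgeR's test). *Itgb2* also passed in 60% against 40% tumors, where 0.814% of all genes were higher (0.77, SE 0.133, adjusted p = 0.0110 in edgeR's test). All 9 T and NK cell markers had positive log2 fold changes in 60% against control tumors, from 0.24 to 0.92 with 0 past the threshold, and summed to 13.5 to 67.8 CPM against 12.6 to 37.4 CPM in control tumors. The 8 macrophage markers (0 past the threshold, 1049 to 1809 against 1227 to 1508 CPM), 6 neutrophil markers (9.33 to 24.4 against 12.8 to 28.5 CPM) and 5 plasmacytoid dendritic cell markers (1.15 to 7.51 against 1.03 to 6.23 CPM) overlapped between the 60% and control tumors. Of the last 5, *Cox6a2* also read 28.8, 25.9, 0.171 and 0.102 CPM in control cultures 1 to 4. Their sum is therefore not particular to plasmacytoid dendritic cells.

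**Figure D5:**
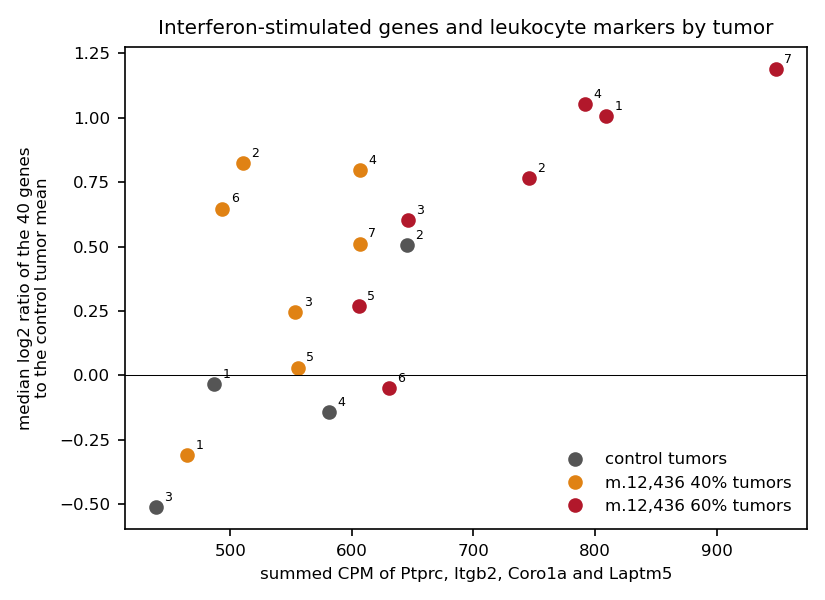
Median over the 40 genes of the log2 ratio to the control tumor mean, against the summed CPM of 4 leukocyte markers, for each of the 18 tumors with its replicate number. The 60% tumors 7, 1, 4 and 2 are at the right with ratios of 1.19, 1.01, 1.05 and 0.77, while 40% tumors 2 and 6 have ratios of 0.82 and 0.65 at marker sums of 510 and 494 CPM, among the lower ones.

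When the mean log2 CPM of the 4 leukocyte markers was added to the fit, the median log2 fold change of the 40 genes in 60% against control tumors went from 0.78 to 0.04, with 24 positive and 16 negative, 0 past the threshold and 0 at an unadjusted p under 0.05, against 6.97% of all genes. *Irf5* went to 0.08 (adjusted p = 0.910 in edgeR's test), *Samd9l* to 0.15 (adjusted p = 0.857) and *Irf1* to -0.01 (adjusted p = 0.994). In 60% against 40% tumors the median went from 0.28 to -0.42, with 2 positive and 38 negative, and 9 of the 40 had an unadjusted p under 0.05, against 8.41% of all genes. Of the 40, 0 passed the threshold in that comparison, and of all genes 15, against 2 and 293 without the markers in the fit. *Irf1* and *Irf5* went to 0.02 and 0.01 there, and *Mx1* and *Mx2* to -0.96 and -0.89. In 40% against control tumors the median stayed at 0.46, with 38 positive, 24 of the 40 at an unadjusted p under 0.05, against 5.46% of all genes, and a smallest adjusted p of 0.827. In 40% against control tumors 0 of all genes passed the threshold, with the markers in the fit and without them. Whether tumor cells or host cells carried the RNA of the 40 genes, and what part the leukocyte content had in their levels, was not tested.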

How the data were processed

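RNA from cultured cells and tumor fragments was extracted and sequenced by a service company, and the authors aligned reads with STAR to GRCm39 and counted them per Ensembl gene with featureCounts, and deposited 1 table of raw counts. Its columns were matched to 26 samples through headings in the study's source data, which tie the column names of the edited groups to m.11,944 60% cells and to high and low heteroplasmy tumors, and through the range of replicate numbers; the table itself does not name the edits, so this match is an inference. A further 21 columns of per-sample values were not used. Counts were tested with edgeR 4.0.16 (quasi-likelihood, TMM scaling, filterByExpr, two-sided), in 1 fit of 8 cultures, 1 of 18 tumors and 1 of control tumors and control cells, at a Benjamini-Hochberg adjusted p under 0.1 over all genes tested. limma-voom 3.58.1, the method of the study, and DESeq2 1.42.0 were alternatives. Deviations of same-numbered cultures correlated by 0.764 to 0.859 in all 4 pairs, so a replicate block is given beside results in cells. On simulated data with log2 changes of 1, the test of 60% against control tumors recovered 77.3% of changed genes, with 11.6% of calls false. The test of m.11,944 60% cells recovered 41.8%, with 14.6% of calls false. That of 60% against 40% tumors recovered 82.1%, with 8.52% of calls false. The simulation drew genes independently, whereas the 40 genes vary together between tumors. Values per sample are given for members past the threshold and, in each class, for the member with the highest mean CPM in tumors and that with the smallest unadjusted p in 60% against control tumors; other genes were named after their values were seen. The members and gene lists were chosen with earlier results of these data known.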

Additional observations from a re-analysis of the deposited data

Results flagged for a closer look

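Over 18 named genes, 88 groups of values were examined for a library far from the others, and 8 had one, where chance gives about 1 in 20. *Irf1* was at 79.9 CPM in control tumor 3, the nearest control tumor being at 108 CPM. *Mx1* was at 13.2 CPM in control tumor 2, the nearest being at 5.12 CPM. *Ifit2* was at 47.0 CPM in control culture 4, the nearest being at 33.9 CPM. In 5 groups a single culture held 1 read where the others held 0: *Mx1* and *Mx2* at 0.0392 CPM each in m.11,944 60% culture 1, *Mx2* at 0.0364 CPM in control culture 2, *Rsad2* at 0.0366 CPM in control culture 1 and *Cmpk2* at 0.0384 CPM in m.11,944 60% culture 3.

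The difference between the mutant tumor groups passed the test for *Irf1*, with a log2 difference of 0.47, and for *Irf5*, with 0.54, both higher in m.12,436 60% than in m.12,436 40% tumors.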

How the results depend on the processing

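In m.11,944 60% cells 1 of the 40 genes passed and 5 of all genes, a count given in brackets from here on. It was 0 with no filter on low counts (5), 2 by DESeq2 (84) and 0 at an adjusted p under 0.05 (4). When 1 culture was left out 0 passed (0). With the replicate block 3 passed (919). In 60% against control tumors 2 passed (374). It was 0 with no filter (262), 4 by limma-voom (408), 24 by DESeq2 (1056) and 0 at an adjusted p under 0.05 (150). With only the 2 groups compared 4 passed (943), and 0 to 20 when 1 tumor was left out (66 to 724). With the leukocyte covariate 0 passed (5). With that covariate 16 of the 40 turned negative, down to -0.44 for *Epsti1*, with *Mx1* at -0.23, *Bst2* at -0.22, *Ifit2* at -0.13, *Mx2* at -0.13 and *Irf1* at -0.0144. In 60% against 40% tumors 2 passed (293). It was 0 with no filter (178), 0 at an adjusted p under 0.05 (113) and 1 with only the 2 groups compared (293). It was 0 with the covariate (15) and 0 to 2 when 1 tumor was left out (108 to 452). The tumors' numbers did not pair them, and a replicate block left 1 passing in 60% against control tumors (178) and 1 in 60% against 40% tumors (221). The cause of these shifts was not tested. With DESeq2's size factors, and with *Ifit3* and *Ifit3b* summed, no count moved by more than 1.5 times. Genes near zero in culture could not be compared between the cell groups at this depth.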
